A study of Mus musculus with 4 samples.

Results

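The genes examined were 10 integrin genes whose products bind collagen, fibronectin, vitronectin and other proteins of the matrix that osteoblasts lay down. They are a fixed list of names, set by matrix ligand and drawn up with earlier results of these data known: the collagen-binding alpha genes Itga1, Itga2, Itga10 and Itga11, the RGD-binding alpha genes Itga5 and Itgav, and the beta genes Itgb1, Itgb3, Itgb5 and Itgb8. They stand among 22359 protein-coding genes of the mouse annotation. A Runx2 peak was counted for a gene where it shared at least 1 bp with the gene body widened by 20 kb on each side, and this rule took 45 of the 25457 day 0 peaks, 80 of the 60596 day 9 peaks and 68 of the 40330 day 28 peaks.

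Runx2 is the transcription factor that directs the osteoblast lineage, and it was immunoprecipitated with the M70 antibody from MC3T3-E1 subclone 4, a clonal preosteoblast line from mouse calvaria labelled as strain C57BL/6. Day 0 cells were proliferating preosteoblasts, day 9 cells were depositing matrix and day 28 cells were mineralizing, with differentiation induced by ascorbic acid and beta-glycerophosphate. No allele or other treatment distinguished the groups. At each time point the authors pooled 2 libraries before they called peaks against 2 input libraries from day 9 cells, so each day has 1 list of peaks, no replicate error, and no test between days. The lists hold no read counts, so the reads behind each peak are not known. By the study's read totals the pooled day 0 libraries were the most deeply sequenced and those of day 28 the least, so the shortest list came from the deepest libraries. They also hold no RNA values, so neither the cell type labels nor the expression of the integrins could be checked here.

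An integrin is a pair of an alpha and a beta chain that spans the cell membrane, with the outer part gripping the matrix and the inner part joined to actin through talin, kindlin and other adaptors. Which matrix protein is bound depends on the pair: Itgb1 joins each of the collagen-binding alpha chains and Itga5, while Itgav can join any of the 4 beta chains listed here. In bone, integrins anchor osteoblasts to collagen and fibronectin and pass on signals from the matrix that accompany their maturation.

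The DNA under some of these peaks is printed because Runx2 recognises the core motif TGTGGT. In the lines that follow, each sequence is the plus strand of NCBIM37 (mm9), and capitals mark TGTGGT or its reverse complement ACCACA. The first group holds, for each gene that had such a stretch outside exons, the 101 bp around the centre of the highest-scoring day 9 peak with the motif within 50 bp of that centre. For Itga1 that stretch overlaps an exon of Pelo and is not shown.
Itga11, upstream, chr9:62516381-62516481: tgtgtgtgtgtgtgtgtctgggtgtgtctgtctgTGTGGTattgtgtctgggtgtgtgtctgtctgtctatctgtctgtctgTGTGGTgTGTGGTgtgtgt
Itga5, upstream, chr15:103202554-103202654: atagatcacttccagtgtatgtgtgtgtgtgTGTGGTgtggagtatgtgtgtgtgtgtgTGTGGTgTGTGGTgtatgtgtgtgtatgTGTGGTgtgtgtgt
Itgav, intron 3, chr2:83588914-83589014: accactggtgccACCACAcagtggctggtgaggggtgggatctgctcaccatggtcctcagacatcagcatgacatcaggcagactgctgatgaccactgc
Itgb1, intron 14, chr8:131248902-131249002: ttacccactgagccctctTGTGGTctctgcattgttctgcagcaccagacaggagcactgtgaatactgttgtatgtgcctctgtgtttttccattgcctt
Itgb3, upstream, chr11:104461155-104461255: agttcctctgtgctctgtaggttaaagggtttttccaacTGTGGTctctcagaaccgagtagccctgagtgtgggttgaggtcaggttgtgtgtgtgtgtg
Itgb5, intron 10, chr16:33937804-33937904: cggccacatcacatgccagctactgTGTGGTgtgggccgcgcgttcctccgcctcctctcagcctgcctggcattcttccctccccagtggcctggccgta
The Itga11 and Itga5 stretches lie in runs of TG, where the motif recurs as part of the run, whereas the Itgav, Itgb1 and Itgb5 stretches hold it once outside such a run.

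A few more stretches were chosen after the values were seen, because they lie under the strongest peaks of Itga11, Itgb3 and Itgb5. The 66 bp from the highest-scoring day 0 peak of Itgb5 hold the motif on each strand, and those from the Itgb3 peak absent at day 0 hold it once. Both stretches were cut around a match, so they hold the motif by choice. The nearest match lies 41 bp from the Itgb5 peak centre and 130 bp from the Itgb3 peak centre. The 101 bp at that Itgb3 centre hold no match.
Itgb5, intron 5, chr16:33889248-33889313: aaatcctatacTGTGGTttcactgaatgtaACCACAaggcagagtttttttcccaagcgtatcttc
Itgb3, intron 1, chr11:104475116-104475181: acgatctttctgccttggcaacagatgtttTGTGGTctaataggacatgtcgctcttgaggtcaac
The 101 bp at the centres of 3 other strong day 9 peaks also hold no match to TGTGGT, and neither does the rest of those 3 peaks. Each of these peaks does hold 1 match to TGCGGT, which was counted as an alternative form of the motif. In the Itgb3 peak it lies in the printed stretch, as the reverse complement ACCGCA, and is not in capitals.
Itga11, intron 1, chr9:62532320-62532420: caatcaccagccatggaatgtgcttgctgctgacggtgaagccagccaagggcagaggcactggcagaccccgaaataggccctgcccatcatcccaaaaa
Itga11, intron 2, chr9:62560628-62560728: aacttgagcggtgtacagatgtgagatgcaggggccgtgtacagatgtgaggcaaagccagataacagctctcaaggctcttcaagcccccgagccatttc
Itgb3, intron 1, chr11:104472999-104473099: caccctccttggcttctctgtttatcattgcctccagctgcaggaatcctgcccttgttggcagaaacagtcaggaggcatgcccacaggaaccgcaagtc

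Every integrin gene examined had at least 1 Runx2 peak at each time point. Among all protein-coding genes this held for 65.0% at day 0, 77.0% at day 9 and 71.2% at day 28. The integrin genes are long, with a median window of 121.7 kb against 55.4 kb for all genes, and a longer window has more room for peaks. Counted per 100 kb of window, the median of the 10 genes was 3.75, 6.06 and 4.11 peaks on the successive days, beside 1.69, 3.49 and 2.33 for all genes. The 4 laminin-binding integrin genes described below had higher medians, of 4.44, 11.5 and 5.70. Medians of 18 cytoplasmic adhesion genes were 2.83, 7.61 and 4.29, lower at day 0 and higher later. Leukocyte and platelet integrin genes had 1.27, 5.07 and 5.07, and the list of Itga9 had 1.26, 3.83 and 3.74.

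**Figure D1:**
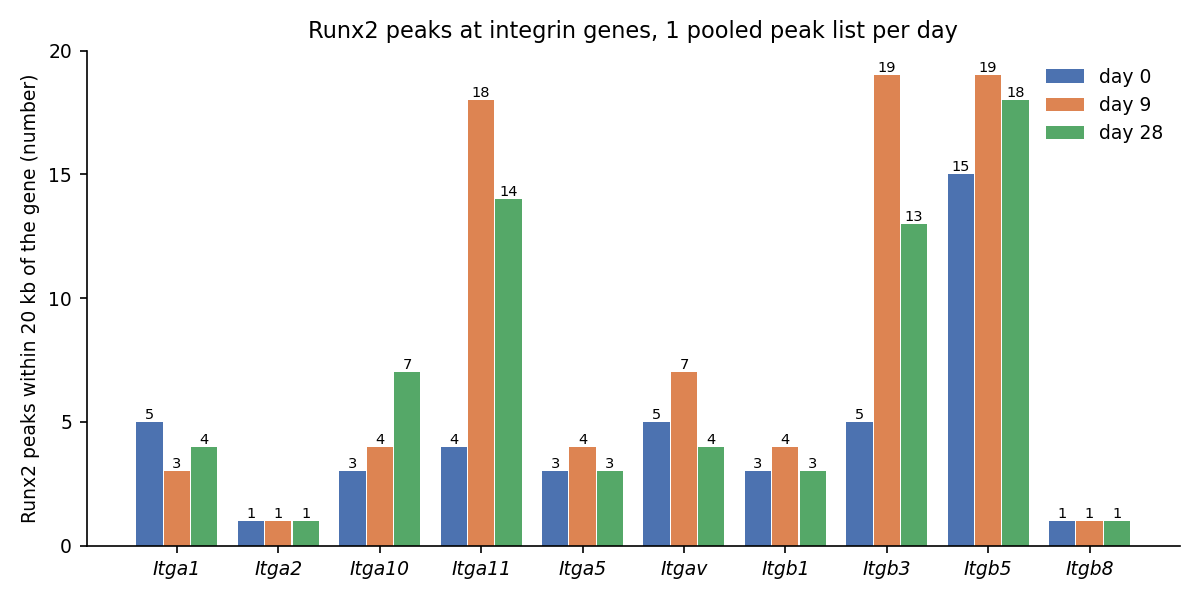
Number of Runx2 peaks (y axis) within 20 kb of each integrin gene (x axis) in the pooled peak list of day 0, day 9 and day 28, with the number above each bar and no error bar because each day has 1 list. Itga11 and Itgb3 had 4 and 5 peaks at day 0 but 18 and 19 at day 9, Itgb5 had 15 or more on each day, and Itga2 and Itgb8 had 1 throughout.

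The peaks were spread unevenly over the genes. Itga11, Itgb3 and Itgb5 together held 24 of the 45 peaks at day 0, 56 of the 80 at day 9 (70.0%) and 45 of the 68 at day 28. The other 7 genes held 21, 24 and 23 peaks, nearly the same number on each day in the full lists. Because the day 9 list is the longest, the counts were repeated with only the 25457 highest-scoring peaks of each list. In these lists of equal length Itga11 still had more peaks at day 9 (9) and day 28 (7) than at day 0 (4), as did Itgb3 with 10 and 8 against 5. Itgb5 then had 9 at day 9 and 10 at day 28 against 15 at day 0, so its order of days turned round. The other 7 genes had 21, 13 and 14, fewer at the later days, which the full lists do not show. All 10 genes together had 45, 41 and 39 peaks in lists of equal length, so the larger totals at days 9 and 28 were not seen there.

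**Figure D2:**
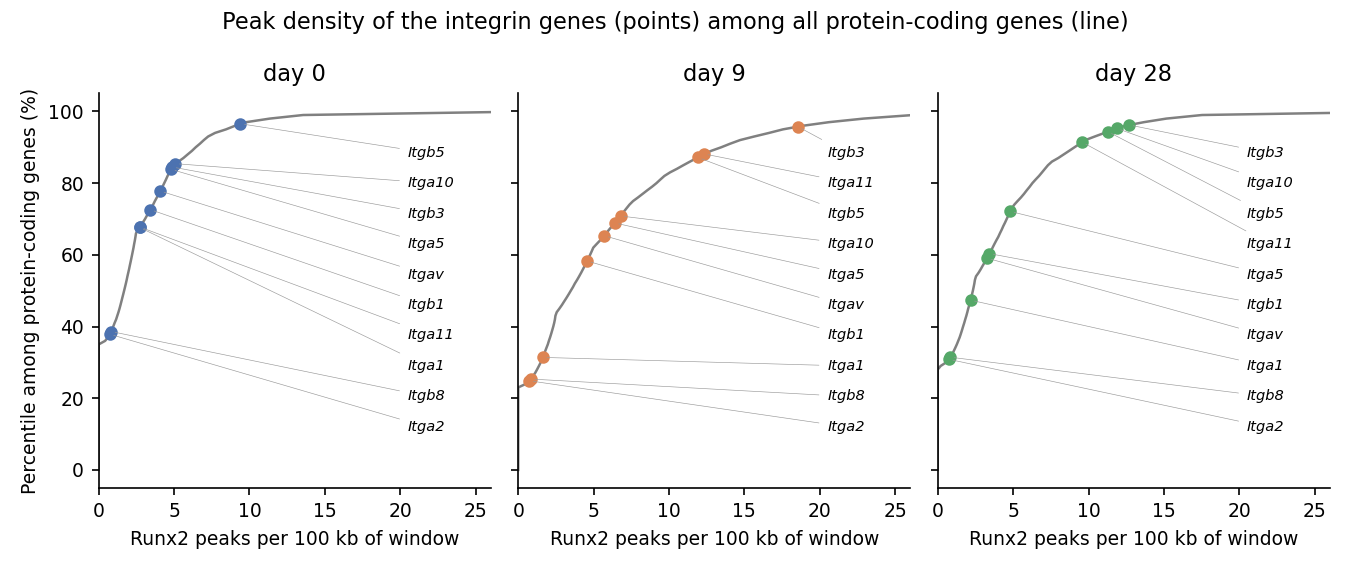
Runx2 peaks per 100 kb of window (x axis) against the percentile of that density among all protein-coding genes (y axis) for each day, with the line standing for all genes and the points for the 10 integrin genes. Itgb3 reached percentile 95.8 at day 9 and Itgb5 96.6 at day 0, while Itga2 and Itgb8 lay under percentile 40 on each day.

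Itga11, whose product joins Itgb1 to bind fibrillar collagen on mesenchymal cells, had the most peaks of the collagen-binding alpha genes. The gene lies at chr9:62525633-62631789 on the plus strand. Its counts were 4 at day 0, 18 at day 9 and 14 at day 28, or 2.74, 12.3 and 9.58 per 100 kb. Among all genes these densities ranked at percentile 67.7, 88.2 and 91.4, so Itga11 stood higher among genes at the later days than at day 0. The peaks merged into 20 regions, of which 7 held a peak at days 9 and 28, 7 at day 9 alone and 3 on all days. A region here joins peaks of the lists that share at least 1 bp.

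Strong peaks stood in intron 1 and intron 2 of Itga11 on all days. The intron 1 region, chr9:62531887-62533364, was centred 6737 bp into the gene and scored 2131 in the day 0 list, 3219 in the day 9 list and 2511 in the day 28 list. The score is the MACS p-value on a negative log10 scale, multiplied by 10, and grows with read depth, so each peak is ranked here by its percentile within its own list. On that scale the intron 1 region stood at 97.9, 99.96 and 93.9, near the top of each list. At day 9, 2699 peaks share a score of exactly 3100, although that list runs to 3233. Whether those tied peaks are weaker than the intron 1 peak is not known. Their percentile of 97.4 is therefore not placed under 99.96. The intron 2 region, chr9:62559852-62561399, stood at 97.3, 97.4 and 95.9. A percentile does not measure a change in binding between days.

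Other strong regions of Itga11 were absent from the day 0 list. The upstream region at -9202 bp from the start, whose TG-rich centre is printed above, stood at percentile 91.3 at day 9 and 52.6 at day 28. Another in intron 2, 46493 bp into the gene, stood at 93.4 and 78.7. The start site itself held a region on all days, with percentiles of 25.4, 79.0 and 43.5, below the percentiles of the intron 1 and intron 2 regions on each day. Introns 1, 2 and 3 held 4, 3 and 3 regions, most of the 13 intronic regions of the gene.

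Itga1, at chr13:115748287-115892172 on the minus strand, encodes the alpha chain of a collagen and laminin receptor. In the full lists it was the only one of the 10 genes with fewer peaks at day 9 (3) than at day 0 (5), with 4 at day 28. In lists of equal length 7 of the 10 genes had fewer at day 9 than at day 0. There the lowest score kept was 346 at day 9 and 100 at day 0. Neither count has the share over all genes beside it, so whether either is unusual is not known. Its start-site region stood at percentile 65.8, 62.8 and 59.6, a narrow span over the days. A region 21676 bp into the gene in intron 1 was the highest-scoring of the gene at day 0 (percentile 76.7), was missing at day 9 and stood at 57.9 at day 28. The strongest region at day 9 and day 28, also in intron 1, lies within 1 kb of the start site of Pelo, a gene inside that intron whose product rescues stalled ribosomes. A peak there cannot be assigned to either gene from its position.

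Itga2, at chr13:115626124-115722249 on the minus strand, encodes another collagen receptor chain, and had 1 peak at each time point. That peak lies beyond the end of the gene, 113833 bp from its start, within 1 kb of the start site of Mocs2, which takes part in molybdenum cofactor synthesis. It stood at percentile 27.2 at day 0, 66.0 at day 9 and 53.8 at day 28. No peak lay in the body or at the start site of Itga2 on any day.

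Itga10, at chr3:96449507-96468442 on the plus strand, encodes a collagen receptor chain known from cartilage. Its window held 3, 4 and 7 peaks, so day 28 had the most in the full lists. In lists of equal length it held 3, 2 and 3. The gene is short and has close neighbours: a region upstream lies within 1 kb of a start site of Rbm8a, with percentiles of 3.95 at day 0 and 13.4 at day 28, and a region downstream within 1 kb of a start site of Ankrd35, with 59.2 at day 9 and 61.4 at day 28. In the last exon a region was present on all days, at percentile 19.5, 40.5 and 65.7. At the start of Itga10 itself a region appeared at day 28 alone with a score of 105, close to the lowest score kept (100). Next to it, 949 bp into the gene, a region stood at percentile 46.1 at day 9 and 23.9 at day 28.

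Among the RGD-binding alpha genes, Itgav had a strong start site and Itga5 a weak one at day 0. Itgav, at chr2:83564554-83647073 on the plus strand, encodes the chain shared by vitronectin, osteopontin and latent TGF-beta receptors. It held 5, 7 and 4 peaks. The start-site region stood at percentile 82.5 at day 0, 97.4 at day 9 and 93.7 at day 28. Downstream of the gene, a region at the start of Fam171b stood at 82.8, 90.6 and 85.2, slightly above the Itgav start at day 0 and below it on the later days. Inside the gene, 6 intronic regions each appeared on a single day, 4 at day 9 and the remaining pair at day 0.

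Itga5 encodes the alpha chain of the main fibronectin receptor and lies at chr15:103174720-103197194 on the minus strand. Its peaks numbered 3, 4 and 3. The start-site region ranked at percentile 3.61 at day 0, near the bottom of the list. On days 9 and 28 it ranked at 68.3 and 50.7, above the middle of those lists. A neighbouring region 963 bp into the gene was present at day 0 alone. The highest-scoring peak at day 9 lay downstream (score 723, percentile 74.9), with a gap of 19933 bp to the gene body, just inside the 20 kb limit. The start site nearest to that peak is that of Zfp385a, not of Itga5, and lies over 1 kb away. Another day 9 region, at -5410 bp from the start, is the TG-rich stretch printed above, with a percentile of 52.2.

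**Figure D3:**
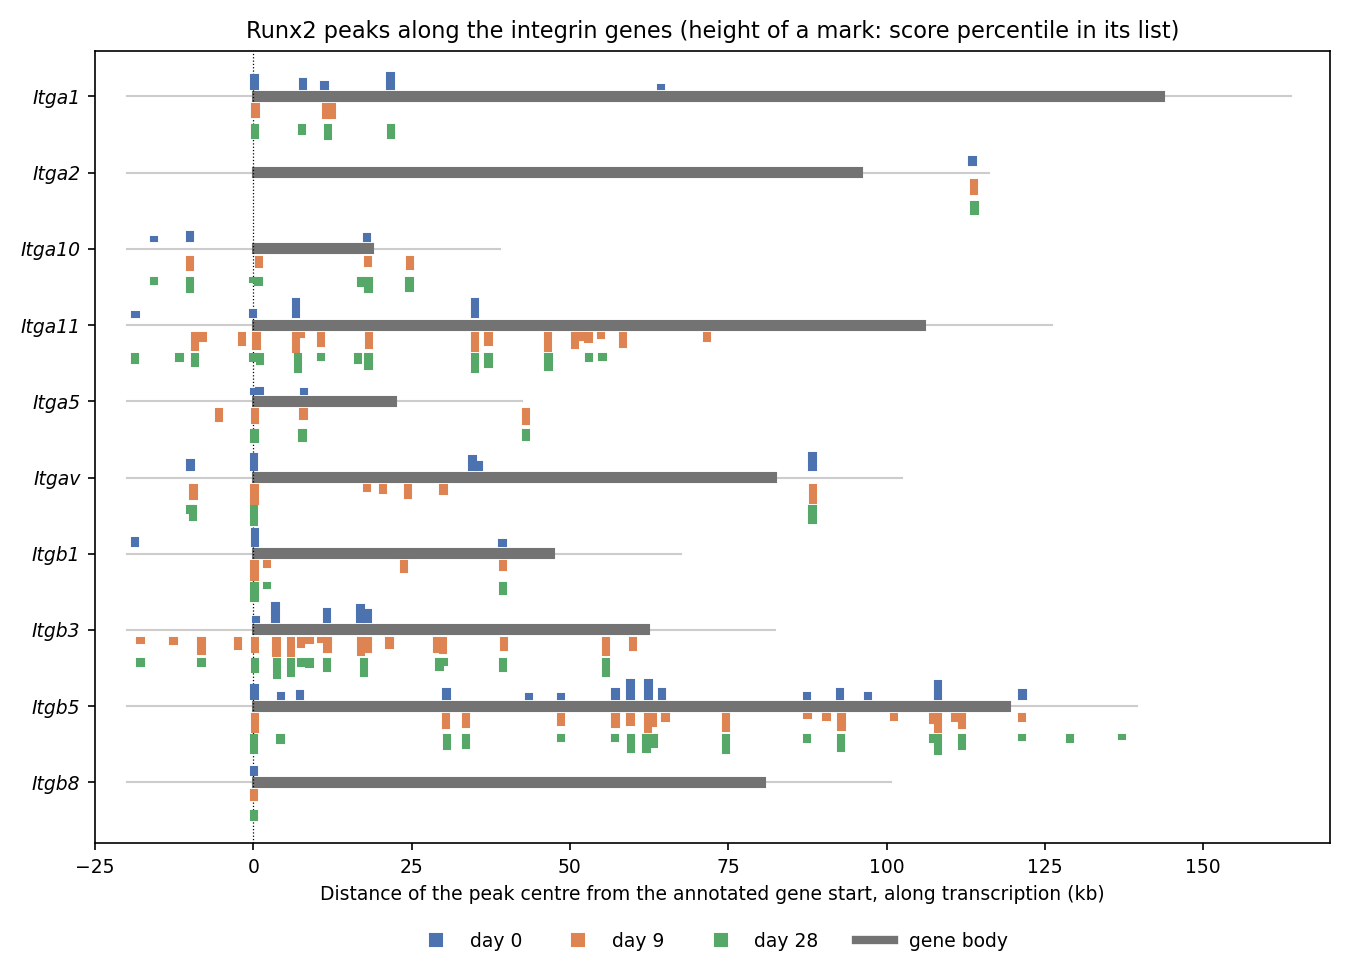
Position of each Runx2 peak centre along the 10 integrin genes (x axis, kb from the annotated start in the direction of transcription), with day 0 above the line and days 9 and 28 in rows under it. Each mark is drawn 1 kb wide and its height grows with the score percentile in its own list, thick bars are gene bodies and thin lines the 20 kb flanks. Peaks lay in several introns of Itga11, Itgb3 and Itgb5, while Itgb8 had peaks at its start alone.

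Itgb1, the beta chain of the collagen and fibronectin receptors, had few peaks but a strong start site. The gene lies at chr8:131209554-131257100 on the plus strand and held 3, 4 and 3 peaks. Its start-site region stood at percentile 89.2 at day 0 and had a score of 3100 at days 9 and 28. In the 3 lists 192, 2699 and 1468 peaks have exactly that score, and nothing orders them. A further region in intron 14, within 1 kb of an internal start site, stood at 11.8, 34.8 and 50.3 and is the Itgb1 stretch with a TGTGGT printed above. Of the 5 regions of Itgb1, these 2 were present on all days.

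Itgb3 encodes the beta chain that with Itgav binds vitronectin, osteopontin and bone sialoprotein, and lies at chr11:104469370-104531790 on the plus strand. Day by day it had 5, 19 and 13 peaks, or 4.88, 18.6 and 12.7 per 100 kb. These densities ranked at percentile 84.5, 95.8 and 96.2 of all genes, the highest of the 10 genes at days 9 and 28. Of its 18 regions, 9 held peaks at days 9 and 28, 5 at day 9 alone and 4 on all days. None was present at day 0 alone.

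Intron 1 of Itgb3 held 6 regions. The region centred 3679 bp into the gene, chr11:104472229-104473565, scored 3100 in all 3 lists and was the only region of the 10 genes to do so. Further in, at 5908 bp, a region was absent at day 0, scored 3100 at day 9 and stood at percentile 88.4 at day 28. That region holds 5 matches to TGTGGT, while its neighbour at 3679 bp holds none. Another late region, in intron 13, stood at percentile 91.1 at day 9 and 86.0 at day 28. The start site of Itgb3 ranked lower, at 9.56, 67.7 and 60.0.

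Itgb5, which also pairs with Itgav to bind vitronectin, had peaks along most of its length at every time point. At chr16:33829751-33949239 on the plus strand, it held 15, 19 and 18 peaks, or 9.41, 11.9 and 11.3 per 100 kb. Its 15 peaks at day 0 were the most of the 10 genes, and its density then ranked at percentile 96.6 of all genes. The peaks formed 24 regions, 10 of them present on all days, against 3 of 20 for Itga11 and 4 of 18 for Itgb3.

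Some regions of Itgb5 ranked high at day 0. The intron 5 region with the motif on each strand, centred 59581 bp into the gene, stood at percentile 97.3 at day 0, 46.9 at day 9 and 82.8 at day 28. Its rank was thus lowest at day 9, as was its score, with 1931 at day 0, 242 at day 9 and 1254 at day 28. Close by, 62287 bp into the gene, a region stood at 95.6, 93.4 and 84.2. In intron 10, 108103 bp in, a region stood at 91.8 at day 0 and scored 3100 on the later days, and this is the Itgb5 stretch printed first. The start site stood at 62.3, 91.6 and 93.2. Intron 10 held 6 regions and intron 5 held 4. At the far end a day 28 region of low score (percentile 2.26) lay at the start of Umps, an enzyme gene of pyrimidine synthesis.

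Itgb8 encodes the beta chain that with Itgav releases active TGF-beta from its latent complex. At chr12:120396495-120477275 on the minus strand, it had 1 region in a window of 120.8 kb. The region covers the start site and was present on all days, with percentiles of 27.6, 41.2 and 35.2. It holds 1 match to the motif, which lies 29, 16 and 4 bp from the centre of the day 0, day 9 and day 28 peak. In lists of equal length Itgb8 had 1 peak at day 0 and none at days 9 and 28.

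Regions at start sites of the 10 genes were mostly present on all days. A peak within 1 kb of an annotated start site was present for 8 of the 10 genes at day 0, 9 at day 9 and 9 at day 28, against 43.6%, 53.3% and 51.1% of all protein-coding genes. Itga2 had none on any day and Itga10 none at day 0. Of the 12 regions at these start sites, 9 held a peak on all days. No share for start-site regions genome-wide is given here, so this cannot be called particular to the integrin genes. In rank they ran from near the bottom of a list (Itga10, percentile 2.83 at day 28) to the top (Itgb1 and Itgav at day 9).

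**Figure D4:**
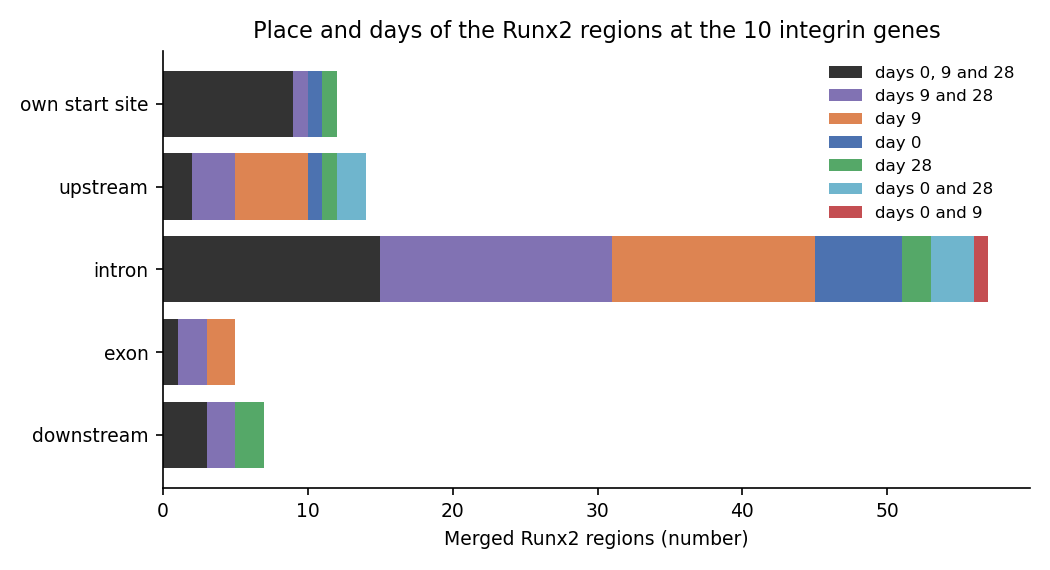
Number of merged Runx2 regions (x axis) by place relative to the integrin gene (y axis), with colours for the days on which a region held a peak. Of 12 start-site regions, 9 held peaks at days 0, 9 and 28, whereas of 57 intronic regions 15 did. Genome-wide shares by place are not given.

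Taking all 95 merged regions, 57 lay in introns, 12 at the genes' own start sites, 14 upstream, 7 downstream and 5 in other exons. Peaks on all days were found in 30 regions (31.6%, against 27.4% of 67703 regions genome-wide). Those of days 9 and 28 numbered 24 (25.3% against 21.1%), and those of day 9 alone numbered 21 (22.1% against 34.5%). Another 8 were found at day 0 alone (8.42% against 5.60%) and 6 at day 28 alone (6.32% against 7.59%). Days 0 and 28 without day 9 gave 5 (5.26% against 2.06%), and days 0 and 9 gave 1 (1.05% against 1.69%). Itga11, Itgb3 and Itgb5 accounted for 62 of the regions, 43 of them intronic and 3 at a start site. The other 7 genes had 33 regions, 14 intronic and 9 at a start site, and 6 of the 7 regions at a neighbour's start site were theirs.

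The regions present on all days had median percentiles of 38.6, 68.4 and 66.4 in the lists of days 0, 9 and 28. Over all 18584 such regions of the genome the medians were 59.8, 79.5 and 73.2, so the integrin regions ranked lower on each day. A percentile higher at day 9 than at day 0 was seen in 24 of the 30. The same order was seen in 14040 of the 18584 regions genome-wide, and each list ranks a different number of peaks.

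**Figure D5:**
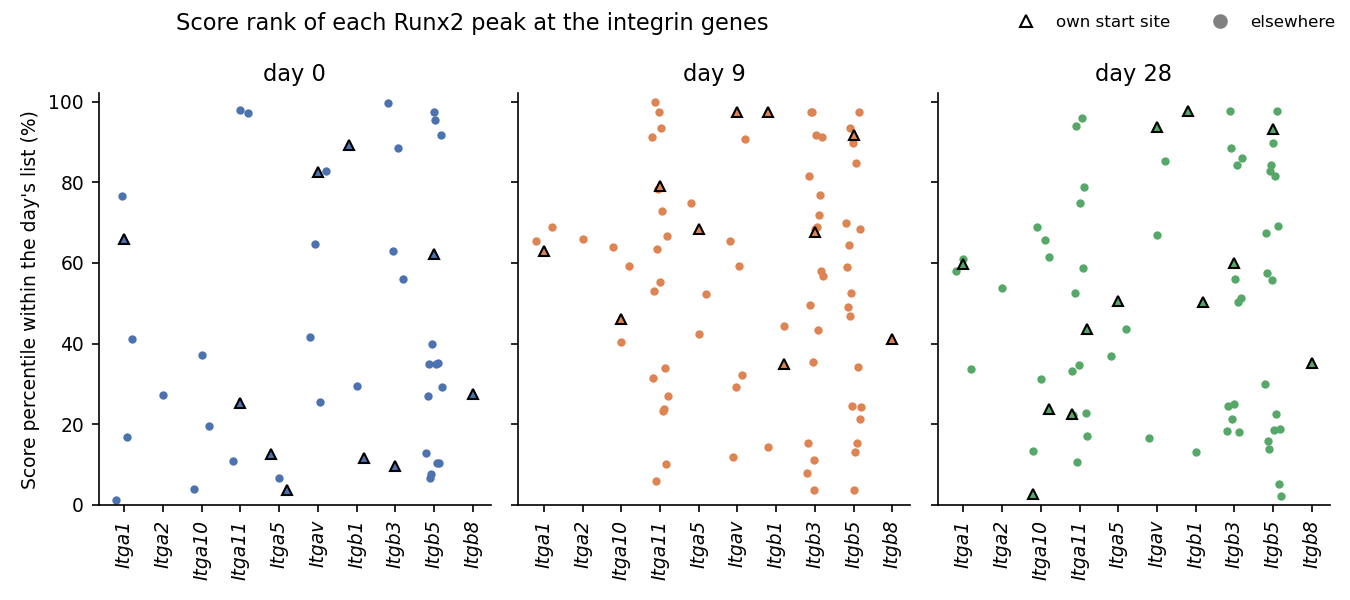
Score percentile within the day's own list (y axis) of each Runx2 peak counted for the 10 integrin genes (x axis), with triangles for peaks within 1 kb of the gene's own start site and circles for the others. The start sites of Itgav and Itgb1 stood at 97.4 at day 9 and that of Itgb8 at 41.2, while intronic peaks of Itga11, Itgb3 and Itgb5 spanned nearly the whole range.

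At peak centres the core motif was found at a smaller share of the integrin peaks than of whole lists on each day, by a margin within counting error. TGTGGT, on either strand, lay within 50 bp of the centre of 4 of 45 peaks at day 0 (8.89%, exact binomial 95% interval 2.48 to 21.2), 16 of 80 at day 9 (20%, 11.9 to 30.4) and 12 of 68 at day 28 (17.6%, 9.47 to 28.8). Whole lists gave 16%, 25.3% and 20.9%, each inside the interval of the integrin peaks. The intervals cover counting error only. In windows of the same length 500 bp to each side, the share was 2.22%, 5.63% and 5.15% for the integrin peaks, lower than at their centres on each day, and 6.68%, 7.32% and 6.99% for whole lists.

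A match anywhere in the peak was found in 37.8%, 46.3% and 42.6% of the integrin peaks at days 0, 9 and 28, lower than the 61.4%, 58.7% and 61.6% of whole lists. No interval is given for these shares, so the statement on counting error does not extend to them. At day 9 the integrin peaks with a match were 37 of 80 with 90 matches, or 1.64 per kb against 2.12 per kb in the whole list. Of these matches 34 lay at Itgb3, 22 at Itga11 and 15 at Itgb5. Some of them lay beside runs of TG: 7 of the 37 peaks also held a TG repeat of at least 20 bp, and those 7 held 39 of the 90 matches. Such a repeat was present in 12.5% of the integrin peaks and 11% of all day 9 peaks. Of the 16 integrin peaks with TGTGGT within 50 bp of the centre at day 9, 5 held such a repeat. Several of the strongest peaks held no TGTGGT at all, among them those at the start sites of Itgav and Itgb1, those in introns 1 and 2 of Itga11 and that at 3679 bp in Itgb3. Of the alternative TGCGGT, the Itgav start peak held 2 matches at day 9, and those of Itga11 and Itgb3 held 1 each. The Itgb1 start peak held 0. Absence of TGTGGT says nothing about how Runx2 came to be at those places.

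Other integrins and the proteins that join integrins to actin were counted in the same way. Of 18 cytoplasmic adhesion genes 16, 17 and 18 had a peak at days 0, 9 and 28, with a median of 9 peaks at day 9. Among all protein-coding genes 65.0%, 77.0% and 71.2% had a peak on those days. Bcar1 and Actn1, for an adaptor and an actin crosslinker, had 14 each at day 9, and Pxn (paxillin), Tln2 (a talin) and Fermt3 (a kindlin) had 13 each. All 4 laminin-binding integrin genes had peaks on each day, led by Itgb4 with 6, 19 and 10 peaks and Itga3 with 5, 11 and 6, followed by Itga6 and Itga7 with 5 each at day 9. Itga9, Itga8 and Itgb6 had 26, 8 and 7 peaks at day 9, while the fourth gene of their list, Itga4, had none on any day and is named after its values were seen.

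Genes of leukocyte and platelet integrins were not free of peaks. Of the 9, 6 had a peak at day 0, 8 at day 9 and 6 at day 28. The share over all protein-coding genes was 65.0%, 77.0% and 71.2% on the same days. Their median counts were 1, 4 and 4 on the successive days, beside 3.5, 4 and 4 for the 10 matrix-binding genes. At day 9 Itgb7 had 10 peaks, and Itga2b and Itgb2 had 9 each. Start-site peaks at day 9 were present at 2 of these 9 genes, 2 of the 4 laminin-binding genes and 2 of the 4 in the list of Itga9. They were present at 15 of the 18 adhesion genes, beside 9 of the 10 matrix-binding integrin genes and 53.3% of all protein-coding genes. These counts describe the lists and were not tested.

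The edge of the 20 kb window divided few peaks. The closest peak left out belonged to Itgav at day 9, with a gap of 21363 bp to the gene body and a score of 107. The next was near Itga11 at day 28, at 22847 bp with a score of 472.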

How the data were processed

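Runx2 ChIP-Seq peaks of MC3T3-E1 cells at days 0, 9 and 28 were analysed. The authors processed base calls with CASAVA (version 1.6), used Bowtie (version 0.12.8) for mapping to mm9, pooled 2 libraries per day, called peaks against day 9 input with MACS (version 1.4.1) and kept those under a p-value of 1e-10. The score in each list deposited by the authors is that p-value on a negative log10 scale, multiplied by 10. Many peaks of each list share a score of exactly 3100, which gives them no order among themselves or against higher scores.

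Here, peaks were overlapped with protein-coding genes of GENCODE version M1 on NCBIM37, merged where they shared at least 1 bp, and placed by their centre, used in place of the summit. Percentiles count ties as midranks. BED starts were read as counted from 0 and are printed from 1. Intervals are exact binomial (Clopper-Pearson). No test was made, because each day has 1 pooled list. Signal tracks and input reads were not used here.

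Named were all 10 genes, their highest-scoring and start-site peaks, neighbours with a start site within 1 kb of a peak, and the 3 genes with most day 9 peaks of each other list, ties included. Zfp385a, whose start site lies farther off, was named as well. The values of 1 region of Itga10 are not reported here. Regions beyond these were described after their values were seen. The members and lists were chosen with earlier results of these data known. Procedures were tested on simulated data. Alternatives covered thresholds, equal list lengths, windows, merging, start sites and the motif. Python 3.11.15, NumPy 2.4.6, SciPy 1.17.1, pysam 0.24.0 and Matplotlib 3.10.9 were used.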

Additional observations from a re-analysis of the deposited data

How the results depend on the processing

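Of 124 values recomputed under alternative settings, 101 stayed within 1.5 times the reported count, or inside the reported interval for motif shares, and 23 did not. At a p-value of 1e-20, peaks numbered 20 at day 0 and 44 at day 28, regions 59, regions on all days 15, and genes with a start-site peak at day 0 numbered 4. At 1e-50, peaks numbered 11, 30 and 22 at days 0, 9 and 28, genes with a peak 6 at day 0 and 6 at day 28, regions 34, regions on all days 9, at days 9 and 28 9, and at day 9 alone 11. Genes with a start-site peak were then 2 at day 0 and 3 at day 28, and the motif share at day 28 was 9.09%. With equal numbers of top-scoring peaks per list, there were 41 peaks at day 9 and 39 at day 28, 63 regions, 10 at days 9 and 28, and 7 at day 9 alone. When a peak was counted only for the nearest start site, 45 remained at day 28. Fewer peaks enter each of these settings by construction. Pooling of the libraries means that no library could be left out. No paired analysis was possible because each day has 1 pooled list. A missing peak may be one under the threshold, and since the lists give no reads per peak this could not be checked. The day 0 libraries were the deepest by the study's read totals.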
